A study of Mus musculus with 4 samples.

Results

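The genes described here were 10 imprinted genes that act on growth: *H19*, *Igf2*, *Meg3*, *Rian*, *Mirg*, *Dlk1*, *Peg3*, *Plagl1*, *Cdkn1c* and *Grb10*. They were chosen by name, with earlier results of these data known. They were 10 of 27612 genes listed in any of the tables. They were read in 4 mouse neural stem cell (NSC) lines derived from epiblast stem cells of strain 129/Sv. Each line was profiled as 1 BD Rhapsody single-cell library of polyadenylated RNA. All 4 lines grew with EGF and FGF2, each at 10 ng/ml. XN4 and XN1 also received 10 µM XAV939, an antagonist of Wnt signaling, which came from a different supplier for each of them, and the lot used for XN1 formed crystals. CN4 received 2 µM CHIR99021, an agonist of Wnt signaling, and KN1 received neither compound. XN1 and KN1 came from 1 derivation experiment, and XN4 and CN4 from another. All 4 lines shared their source cells, which had themselves been kept with XAV939. With 1 library per line, a difference between lines has no replicate check, and line, culture condition and library cannot be told apart.

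An imprinted gene is transcribed mainly from the copy inherited from the mother or mainly from the copy inherited from the father. The choice is set by DNA methylation that differs between egg and sperm, and it is carried by control regions that govern clusters of neighboring genes. Several of these genes form pairs with opposite roles in fetal growth. *Igf2* encodes an insulin-like growth factor and is active on the paternal copy, whereas its neighbor *H19* makes a noncoding RNA from the maternal copy. *Dlk1*, a transmembrane protein of the Delta family, is paternal, whereas *Meg3*, *Rian* and *Mirg* are maternal noncoding RNAs made one after another from the same domain. *Peg3* and *Plagl1* are paternal genes for zinc finger proteins, *Cdkn1c* is a maternal inhibitor of cyclin-dependent kinases, and *Grb10* encodes an adaptor that dampens insulin and insulin-like growth factor receptors. The paternal copy of *Grb10* is the one used in neurons. The tables do not separate reads by parental copy, so the parental origin of the RNA was not measured.

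In GRCm38 the annotation (GENCODE M21) places *H19* at chr7:142575529-142578143 and *Igf2* at chr7:142650766-142666816, both on the minus strand. *Dlk1* lies at chr12:109452823-109463336, and *Meg3* follows it on the same plus strand at chr12:109541001-109571726. *Rian* at chr12:109603940-109661716 and *Mirg* at chr12:109729764-109749460 come next on that strand. *Peg3* (chr7:6703892-6730431, minus), *Plagl1* (chr10:13060504-13131694, plus), *Cdkn1c* (chr7:143458339-143461050, minus) and *Grb10* (chr11:11930508-12038683, minus) lie in 4 other places. Of these, *Cdkn1c* lies closest to *H19* and *Igf2*, on the same chromosome and strand. *Igf2* overlaps the antisense gene *Igf2os*, and the sources used here do not state whether reads were counted by strand. Promoter sequences from RefSeq (GRCm38.p6) were matched for 8 of the 10 genes; *H19* and *Cdkn1c* had no entry.

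Promoter sequences are shown for both sides of the *Dlk1* and *Meg3* domain and for *Plagl1* and *Grb10*, whose levels set the lines apart in different orders. Each is the stretch from 250 to 51 bases before an annotated start, 5′ to 3′ on the strand of the gene, with every CG dinucleotide, the place where mammalian DNA is methylated, in capitals. The *Meg3*, *Dlk1* and *Grb10* stretches lie outside annotated exons. The *Plagl1* stretch overlaps up to 91 bases of exons of noncoding transcripts. They lie at chr12:109540746-109540945, chr12:109452573-109452772, chr10:13090582-13090781 and chr11:12037471-12037670.
Meg3: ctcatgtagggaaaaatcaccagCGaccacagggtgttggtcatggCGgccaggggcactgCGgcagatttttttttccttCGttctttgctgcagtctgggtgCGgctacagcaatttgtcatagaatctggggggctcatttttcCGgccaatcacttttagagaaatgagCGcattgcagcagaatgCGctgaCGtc
Dlk1: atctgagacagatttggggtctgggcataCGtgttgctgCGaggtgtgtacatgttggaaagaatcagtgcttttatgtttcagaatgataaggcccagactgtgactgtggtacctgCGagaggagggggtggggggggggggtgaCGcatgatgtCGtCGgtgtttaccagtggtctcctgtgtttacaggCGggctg
Plagl1: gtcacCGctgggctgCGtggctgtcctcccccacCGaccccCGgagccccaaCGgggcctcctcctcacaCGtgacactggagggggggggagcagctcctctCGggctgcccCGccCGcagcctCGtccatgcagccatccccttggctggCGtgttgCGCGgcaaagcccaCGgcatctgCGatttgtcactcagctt
Grb10: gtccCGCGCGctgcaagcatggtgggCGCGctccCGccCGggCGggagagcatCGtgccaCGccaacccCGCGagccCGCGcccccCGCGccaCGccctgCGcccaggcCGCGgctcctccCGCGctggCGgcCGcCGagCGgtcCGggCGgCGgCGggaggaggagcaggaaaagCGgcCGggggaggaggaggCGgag

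The *Grb10* stretch held 33 CG dinucleotides and *Plagl1* held 15. *Meg3* held 9 and *Dlk1* held 7. *Plagl1* and *Dlk1* have 1 promoter entry each, whereas *Meg3* and *Grb10* have 2. The stretch shown for these 2 genes belongs to the entry farthest upstream, and the stretch of the other entry held 0 for *Meg3* and 5 for *Grb10*. Over 32851 RefSeq promoters of the same length the median was 4, and 89.1% held at least 1. As many or fewer than in *Grb10* were found in 99.2% of promoters, and the same share for *Dlk1* was 65.0%. Methylation was not measured, so these counts describe the sequence alone.

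The measure of level is the number of reads of a gene per 10000 reads, pooled over the cells of a line. The authors removed reads of ribosomal protein and mitochondrial genes before normalizing, and no such gene is in the normalized tables, so a level is a share of the remaining reads. In the count table of all 8741 XN4 cells, which holds those genes, *H19* was at 1.77 where the normalized table gave 2.59. Capture is the share of cells with at least 1 read. The tables of normalized values held 3975 cells of KN1, 3927 of XN4, 3905 of XN1 and 3448 of CN4, with median depths of 4637 to 7796 reads per cell. The median number of genes per cell was 833 in KN1 and 2257 to 2824 in the other lines. KN1 still had the fewest, 764.5 against 1651 to 1847, when every cell was thinned at random to 3200 reads. Capture therefore reads low in KN1 against a given level. Levels in KN1 are shares of reads with another RNA makeup, *Malat1* being higher there than in the other lines, as given below. How far KN1 levels compare with those of the other lines was not tested. The reads-per-cell table of KN1 was not analysed here, and the sources used here do not say whether every setting of its pipeline was that of the other lines. Intervals are 95% intervals for counting error only, exact Poisson for levels and exact Clopper-Pearson for shares. The ranges given with ratios of dividing to nondividing cells are made otherwise, as described there. Reads are not separate molecules, so the intervals are too narrow.

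In the single-cell reads, the name neural stem cell line was borne out by its markers in XN1, KN1 and CN4 but not in XN4. *Sox2*, which encodes a defining transcription factor of NSCs, was captured in 83.9% of CN4, 62.2% of XN1 and 13.9% of KN1 cells but in 0.560% of XN4 cells. In XN4 no read of *Fabp7* or *Hes5* was found. Of 10 NSC markers 3 reached 10% of XN4 cells, namely *Vim*, *Sox9* and *Notch1*, against 7 to 10 in the other lines. Of 10 mesenchymal markers 7 did so in XN4. Their summed level was 83.0 in XN4 against 0.201 to 2.02 in the others. *Col3a1*, a fibrillar collagen, was captured in 97.8% of XN4 cells. The paper reports other evidence for XN4. On its microarrays *Sox2* was expressed in all of its lines, and XN4 gave neuronal and glial cells under differentiation conditions. The difference between those assays and the reads here was not examined. In the reads XN4 stands apart in the NSC and mesenchymal markers. Every result with XN4 moves with these markers, and their part in it was not tested. Genes of unrelated tissues gave the background of stray reads. None of 10 was listed in the normalized tables except *Sftpc*, a lung gene, in CN4, where it reached 0.754% of cells and a level of 0.0296. Between 14 and 21 cell labels recurred between any pair of normalized tables.

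*Rian* was in none of the tables and has no value here. The other 9 genes were listed for XN4, 7 for XN1, 7 for CN4 and 5 for KN1. A listed gene had reads in no fewer than 3 to 7 cells, depending on the line, so these tables leave out the rarest genes. Reads per cell of all cells, deposited for XN4, XN1 and CN4, filled some of these gaps.

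*H19* was far higher in XN4 than in CN4, the 2 lines that list it. The level was 2.59 (2.54 to 2.63) in XN4 and 0.0466 (0.0382 to 0.0563) in CN4, 55.5-fold apart. It was captured in 15.7% of XN4 cells (14.6 to 16.9) and 1.94% of CN4 cells (1.51 to 2.46), where the stray *Sftpc* reached 0.754%. It was not listed for XN1 or KN1, nor in the table of all XN1 cells. Within XN4 the reads were spread very unevenly. The 617 capturing cells had a median of 5 reads, and 1% of all XN4 cells held 44.5% of the reads.

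*Igf2*, the growth factor gene beside it, was rare in the 3 lines that gave a value and was not listed for KN1. XN4 had 110 reads in 54 of 3927 cells, a level of 0.0265 (0.0218 to 0.0319). In the same cells as the normalized tables XN1 had 1 read and CN4 had 2. Among all cells of the reads-per-cell tables, 139 of 8741 XN4, 7 of 14452 XN1 and 3 of 18157 CN4 cells had a read. The XN4 share of 1.59% (1.34 to 1.87) lay far above the highest share of a background gene in that table, 0.0686%. The CN4 share of 0.0165% lay within the range of the background genes there, 0 to 0.892%. The XN1 share of 0.0484% (0.0195 to 0.0998) lay above their highest share in that table, 0.0138%.

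*Meg3*, a maternal noncoding RNA, was highest in XN4 as well. Its level was 2.01 (1.96 to 2.05) in XN4, 0.109 (0.0952 to 0.125) in XN1 and 0.0301 (0.0234 to 0.0381) in CN4, and it was not listed for KN1. XN4 was 18.3-fold (16.0 to 21.1) above XN1. Capture was 20.4%, 3.97% and 1.13% in the same order. The CN4 level did not differ from that of the lung gene *Sftpc* in that library beyond counting error. Over all CN4 cells *Meg3* was captured in 1.18% (1.03 to 1.35) and *Sftpc* in 0.892% (0.761 to 1.04). *Mirg*, made further along the same domain, was also highest in XN4. It reached 0.197 (0.183 to 0.211) in XN4 with 817 reads. XN1 had 15 reads and CN4 had 8 in the same cells, and these 2 lines did not differ beyond counting error (ratio 2.23, 0.889 to 6.08).

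*Dlk1*, the paternal gene of that domain, had the widest range of all. Its level was 6.55 (6.47 to 6.63) in XN4, 0.0851 (0.0726 to 0.0992) in XN1, 0.0505 (0.0418 to 0.0606) in CN4 and 0.00653 (0.00387 to 0.0103) in KN1. XN4 lay 76.9-fold above XN1, 129.5-fold above CN4 and 1002.5-fold above KN1, where only 18 reads were found in 11 cells. It was captured in 44.6% of XN4 cells and in 0.277% to 2.92% of cells in the other lines. *Dlk1*, *Meg3* and *Mirg* were thus each highest in XN4 among the lines that list them, on the paternal and on the maternal side of the domain.

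*Plagl1*, a zinc finger transcription factor that limits proliferation, was captured in most XN4 cells. Its level was 17.6 (17.4 to 17.7) in XN4, 1.34 (1.29 to 1.39) in XN1, 0.243 (0.223 to 0.264) in CN4 and 0.0816 (0.0713 to 0.0930) in KN1. Capture was 87.1%, 26.9%, 10.2% and 1.51% in that order. All 4 levels were separated beyond counting error, and the order XN4, XN1, CN4, KN1 was that of *Dlk1*. The 2 lines grown with XAV939 were the upper 2, although they lay 13.1-fold apart from each other.

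*Peg3*, another zinc finger gene, had a single high line and 3 close ones. XN4 reached 8.13 (8.04 to 8.22) reads per 10000. XN1, KN1 and CN4 stood at 1.58 (1.52 to 1.63), 1.56 (1.51 to 1.61) and 1.55 (1.50 to 1.60), and these 3 did not differ beyond counting error. The ratio of XN1 to CN4 was 1.02. Under other processing the log2 ratio reached 0.126 for XN1 to CN4 and 0.169 for KN1 to CN4, outside their counting intervals. Capture did not show this equality, since it was 38.0% in XN1, 42.2% in CN4 and 16.3% in KN1. Capturing KN1 cells held a median of 5 *Peg3* reads, whereas those of XN1 held 1 and those of CN4 held 2. A similar share of reads was therefore concentrated in fewer cells in KN1. This was not a trait of *Peg3* alone, since the imprinted ubiquitin ligase gene *Ube3a*, at 3.36 in KN1 and 3.30 in XN1, was captured in 30.6% and 68.4% of cells.

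*Cdkn1c*, the inhibitor of the cell cycle, was the one member highest outside XN4. CN4 had a level of 0.720 (0.686 to 0.755) and XN4 had 0.555 (0.533 to 0.578). XN1 at 0.0830 (0.0707 to 0.0969) and KN1 at 0.0323 (0.0259 to 0.0397) were far lower. CN4 was 22.3-fold above KN1 and 8.67-fold above XN1. It was 1.30-fold above XN4, which is under the 2-fold limit used here. Under other processing the log2 ratio of XN4 to CN4 reached -0.763, outside its counting interval. Within XN4, 1% of the cells held 49.6% of the *Cdkn1c* reads. CN4 cells with a *Cdkn1c* read made up 17.1%, against 10.7% in XN4.

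*Grb10*, the receptor adaptor, was low in XN1 alone. Its level was 1.11 (1.08 to 1.14) in XN4, 1.01 (0.976 to 1.05) in KN1 and 0.747 (0.712 to 0.784) in CN4. In XN1 it was 0.0296 (0.0224 to 0.0383), with 57 reads in 44 cells. XN1 was lower than XN4 by 37.5-fold, than KN1 by 34.2-fold and than CN4 by 25.3-fold. Among all 14452 XN1 cells 0.989% had a read. Thus XN1, which stood second for *Plagl1*, *Dlk1* and *Meg3*, was last for *Grb10*.

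**Figure D1:**
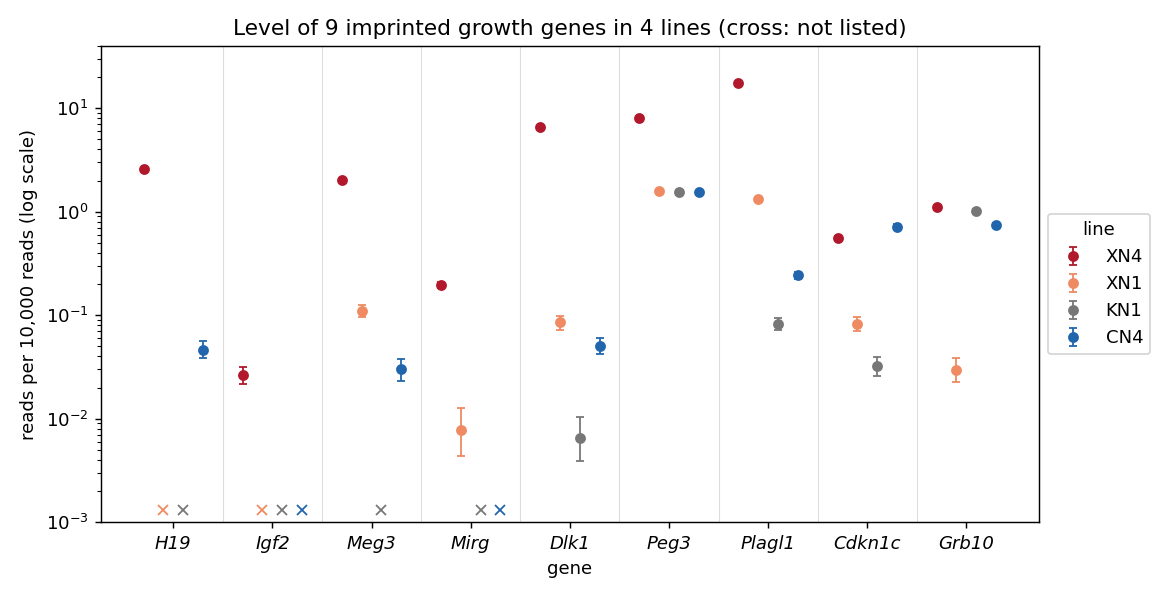
Level of each gene (reads per 10000 reads, log axis) in the 4 lines, with 95% Poisson intervals as bars where they exceed the point, and a cross where the normalized table of a line does not list the gene. XN4 is the highest point for 8 of the 9 genes, CN4 for *Cdkn1c*, and the *Peg3* points of the other 3 lines coincide near 1.55 to 1.58.

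A count of members past a fold limit has to be read with the filter, since a gene entered a comparison only with a mean level of at least 0.1. A member that is nearly silent in one line entered through its high line and was then bound to differ. Over the 4 lines 7 members entered and 7 were 4-fold or more apart between their highest and lowest line, beside 29.8% of 10273 genes. *Igf2* and *Mirg* did not enter. For *Dlk1*, *Meg3* and *Grb10* the call was fixed by entering, so the count of 7 supports nothing by itself. The other 4 were *H19* at 55.5-fold, *Plagl1* at 215.2-fold, *Cdkn1c* at 22.3-fold and *Peg3* at 5.25-fold. *Peg3* was the one member at 0.1 or more in all 4 lines, and *H19*, *Plagl1* and *Cdkn1c* entered through a high line. Without XN4, 3 of 4 members were past 4-fold, beside 20% of all genes. Of these *Cdkn1c* and *Grb10* were fixed by entering, *Plagl1* was at 16.4-fold, and *Peg3* was at 1.02-fold. Without KN1 the count was 7 of 7, beside 17% of genes. *Meg3* and *Grb10* were then fixed by entering, and *H19*, *Dlk1* and *Cdkn1c* were also below 0.1 in a line and entered through a high one. *Plagl1* and *Peg3*, at 0.1 or more in each of these lines, were 72.4-fold and 5.25-fold apart.

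Between the 2 lines grown with XAV939, the 7 members that entered were each 2-fold or more higher in XN4 than in XN1, beside 15.8% of genes higher and 12.6% lower (28.4% in either direction). *Mirg* and *Grb10* were bound to be, and *Dlk1* and *Cdkn1c* also entered only through their XN4 level. *Meg3*, *Plagl1* and *Peg3* reached 0.1 in both lines, at ratios of 18.3, 13.1 and 5.16. Between XN4 and CN4, which share a derivation experiment, 6 of 8 members were 2-fold or more higher in XN4 and none was lower, beside 15.6% and 13.8% of genes (29.5% in either direction). Of the 6, *H19*, *Meg3*, *Mirg* and *Dlk1* were bound to be higher by entering through XN4. The 4 members at 0.1 or more in both lines were *Plagl1* (72.4-fold) and *Peg3* (5.25-fold), which were higher in XN4, and *Cdkn1c* and *Grb10*, which were within 2-fold. Between XN1 and KN1, which share the other experiment, 1 of 3 was higher (*Plagl1*) and 1 lower (*Grb10*, bound to differ), beside 22.9% of genes higher and 23.1% lower (46% in either direction). Between CN4 and KN1, *Cdkn1c* (22.3-fold, bound to differ) and *Plagl1* (2.97-fold) of 4 members were higher in CN4, beside 22% of genes higher and 19% lower (41% in either direction). With so few members, these last 2 counts cannot be set apart from the share of all genes.

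A cell of XN4 held reads of several members at once. The count at 3200 reads ran over the listed members, 9 in XN4, 7 in XN1 and CN4 and 5 in KN1, and with all reads also over members that the reads-per-cell tables added. The median number captured per cell was 3 in XN4, 1 in XN1 and CN4, and 0 in KN1 with all reads, and 2 in XN4, 1 in CN4 and 0 in XN1 and KN1 at 3200 reads. At 3200 reads per cell, 93.6% of XN4 cells held at least 1 member and 48.3% held at least 3. The corresponding shares with at least 1 were 47.5% in XN1, 52.2% in CN4 and 23.8% in KN1, and with at least 3 they were 1.15%, 1.68% and 0.0294%. Thinning lowered single shares without changing which line was highest. *Plagl1* went from 87.1% to 81.6% in XN4, *Dlk1* from 44.6% to 35.9% and *Cdkn1c* in CN4 from 17.1% to 11.7%.

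**Figure D2:**
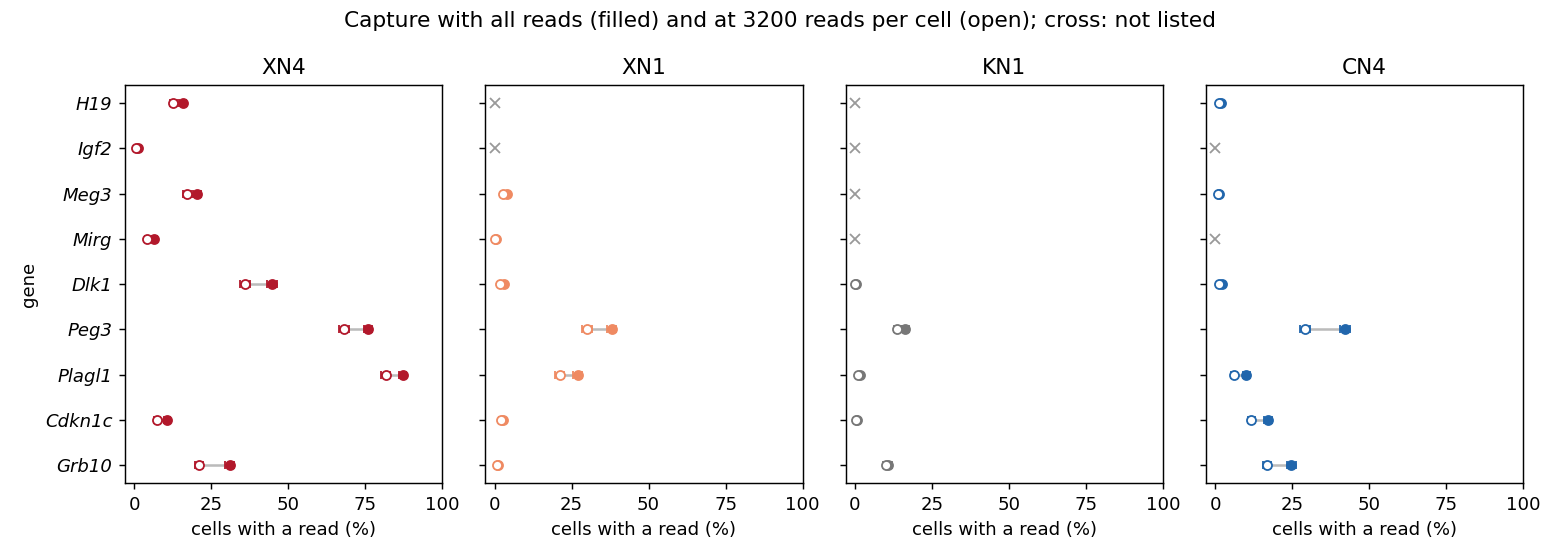
Share of cells with at least 1 read of each gene in the 4 lines, with all reads (filled points) and after thinning to 3200 reads per cell (open points). Bars are 95% Clopper-Pearson intervals, a cross marks a gene that is not listed, and XN4 is the only line with *Dlk1*, *Peg3* and *Plagl1* all above 30%.

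**Figure D3:**
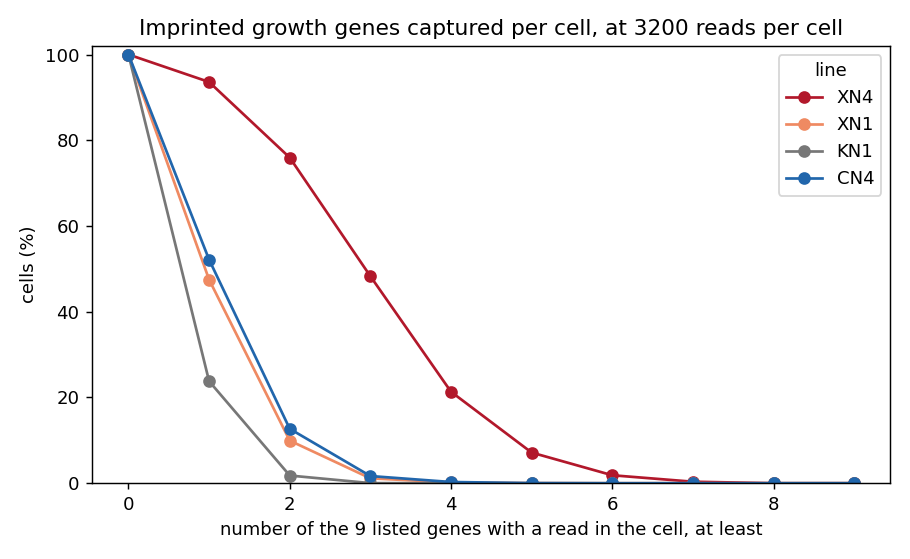
Share of cells (vertical axis) with at least the given number of the listed genes captured (horizontal axis), at 3200 reads per cell. The XN4 line falls to 48.3% at 3 genes, where the other lines are at 1.68% or less.

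Whether members were captured in the same cells was described by the number of cells with both, divided by the number expected within 20 groups of cells of like depth. In XN4 the ratio was above 1 for 29 of 35 pairs, the interval lay above 1 for 15, and the median was 1.09. Over all pairs of genes in XN4 with at least 5 cells expected, 51.5% were above 1, 0.912% had an interval above 1, and the median was 1.00. Of the pairs of a member with any other gene, 1.49% had an interval above 1. These background pairs were not matched to the member pairs in expected count. An interval clears 1 more easily where more cells are expected, so in each line the shares of such intervals are not like for like. The ratio also has a ceiling, which is lower the more cells capture the commoner gene. Ratios of different pairs therefore do not rank how closely the genes go together. *Peg3* and *Plagl1*, each captured in most XN4 cells, gave 1.05 (1.01 to 1.09). The highest ratio was that of *Meg3* and *Mirg*, with 231 cells against 55.4 expected, at 4.17 (3.65 to 4.74). Of the 256 cells with *Mirg*, 90.2% also had *Meg3*, whereas 15.6% of cells without *Mirg* had it. These 2 RNAs come from the same strand of the same maternal domain.

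Pairs with the paternal gene of the domain had lower ratios. *Meg3* and *Dlk1* gave 1.03 (0.926 to 1.13) in XN4, with *Dlk1* in 47.6% of cells with *Meg3* and 43.9% of cells without. *Mirg* and *Dlk1* gave 1.27 (1.07 to 1.48), with 154 cells against 121.7 expected. *H19* and *Igf2*, the other pair of neighbors of opposite parental origin, gave 2.45 (1.55 to 3.67), from 23 cells. Cells with *H19* also had *Mirg* (1.92, 1.52 to 2.38), *Meg3* (1.39, 1.20 to 1.61) and *Dlk1* (1.39, 1.25 to 1.53) more often than cells of like depth, although these lie on another chromosome. *Dlk1* was captured in 64.5% of cells with *H19* and 40.9% of the rest. *Cdkn1c* showed no such pairing, with ratios between 0.849 and 1.14 for all partners except *H19* (1.25, 1.00 to 1.53). *H19* and *Igf2* lie near *Cdkn1c* on the same chromosome, and *Igf2* with *Cdkn1c* gave 0.956 (0.413 to 1.88). Capture of *Col3a1* was 98.6% in XN4 cells with *H19* and 97.3% in those without it at 3200 reads, and that of the collagen-binding proteoglycan gene *Dcn* was 79.6% and 83.5%. *Mki67*, a marker of dividing cells, was captured in 29.7% (25.4 to 34.3) and 21.7% (20.2 to 23.2) of the same groups. For *Plagl1* the cells with and without reads had *Col3a1* in 99.1% and 90.2% and *Mki67* in 24.5% and 14.5%. The part of these differences in the pairing was not tested.

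**Figure D4:**
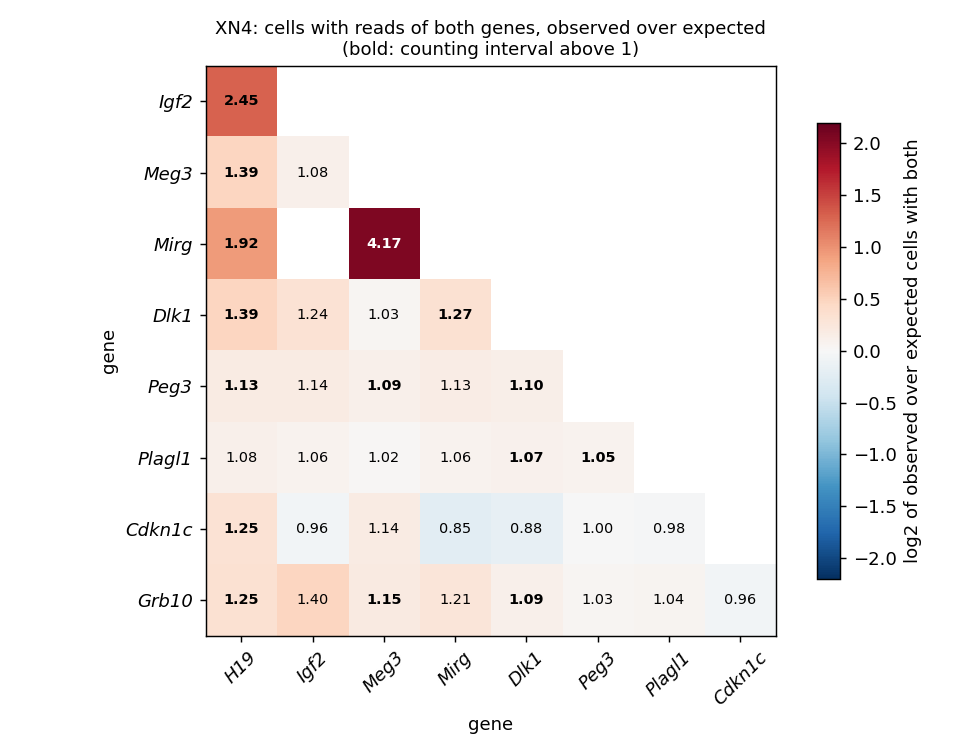
Observed over expected number of XN4 cells with reads of both genes, for each pair with at least 5 cells expected, expected within 20 groups of like depth (color on a log2 scale). Values are the ratios, and bold marks an interval above 1. *Meg3* with *Mirg* (4.17) and *H19* with *Igf2* (2.45) are the 2 highest ratios, and pairs with a widely captured gene have a lower ceiling.

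In XN1 the members were rarer, and 4 of 11 pairs had an interval above 1, beside 1.1% of all pairs of genes. *Meg3* and *Dlk1* gave 3.49 (2.07 to 5.51) there, from 18 cells, and *Plagl1* went with each of them at 1.71. Over all 14452 XN1 cells *Meg3* and *Dlk1* occurred together in 59 cells against 19.8 expected, a ratio of 2.99 (2.27 to 3.85). None of these 59 had a read of *Col3a1*, which only 0.228% of all XN1 cells had, so 59 cells are too few to show a difference. *Sox2* was in 35 of them (59.3%), close to the 63.5% of all XN1 cells. In CN4 no interval lay above 1 among 17 pairs, and none did among 4 in KN1, beside 0.894% and 1.48% of all pairs. Over all 18157 CN4 cells, *Meg3* and *Dlk1* were found together in 24 cells against 7.79 expected. In that table *H19* and *Dlk1* gave 2.18 (1.44 to 3.18), from 27 cells, and *Meg3* and *Plagl1* gave 1.60 (1.18 to 2.12), whereas *Dlk1* and *Plagl1* gave 0.884 with an interval that holds 1. Of the 24 cells with *Meg3* and *Dlk1*, 8 had *Col3a1* (33.3%), which 1.04% of all CN4 cells had. It was in 7 of the 27 cells with *H19* and *Dlk1* (25.9%) and 11 of the 48 with *Meg3* and *Plagl1* (22.9%). Of the 67 cells with *Dlk1* and *Plagl1*, 3 had it (4.48%). *Sox2* was in 85.9% of all CN4 cells. It was in 58.3% of those with *Meg3* and *Dlk1* and 70.4% of those with *H19* and *Dlk1*. The shares were 77.1% with *Meg3* and *Plagl1* and 92.5% with *Dlk1* and *Plagl1*. At 3200 reads *Col3a1* was in 4 of 26 CN4 cells with *Meg3* (15.4%, 4.36 to 34.9) and in 0.415% of the rest. The part of such cells in the CN4 values was not tested. *Meg3* went with *Mirg* in these larger tables of all 3 lines, at 4.32 (3.95 to 4.72) in XN4, 5.79 (2.65 to 11.0) in XN1 and 12.1 (4.86 to 24.9) in CN4, from 491, 9 and 7 cells. The numbers expected in XN1 and CN4 were 1.55 and 0.580, under the 5 cells asked of the other pairs. Of the 7 CN4 cells, 3 had *Col3a1* (42.9%).

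The genes whose reads varied most like those of a member across XN4 cells were largely other imprinted genes where r was above the weakest values. Likeness was Pearson's r of ln(1 + reads) over 3384 cells thinned to 3200 reads, among 5248 genes captured in at least 10% of them. The cells share 1 library, and r is given as a description. *Plagl1* was most like *Peg3* (0.43), then *Zim1* (0.37) and *Dlk1* (0.37). *Zim1* is a maternal zinc finger gene beside *Peg3*. *Peg3* was next most like *Zim1* (0.33) and *Mest* (0.32), a paternal gene for an enzyme of the hydrolase family. *Dlk1* was most like *Plagl1*, then *Mest* (0.27) and the kinase gene *Nrk* (0.27). *H19* was most like *Dlk1* (0.26), *Meg3* (0.19) and *Plagl1* (0.19), and *Meg3* was most like *H19* (0.19) and *Plagl1* (0.19).

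For the 6 members captured widely enough in XN4, the 3 genes ranked highest for each gave 18 places, and a pair of members can fill 2 of them. Values of r below 0.15 in such sparse counts are too weak to be read as a pattern, and this limit, chosen after seeing the data, left 14 places. Members or listed imprinted genes filled 13 of these, whereas 22 of the 5248 genes compared (0.419%) were on those lists. The lists were chosen with earlier results of these data known, so the count is a description and not a test. *Nrk*, which filled a place of *Dlk1*, was the exception. No place of *Grb10* reached this limit. In nondividing XN4 cells alone 15 of 15 such places were so filled, without the deepest 5% of cells 14 of 14, and at 1600 reads per cell 9 of 10. Without the limit on r, 16 of 18 places were filled by members or listed imprinted genes, and 11 of 15 at 1600 reads. Fewer members were captured widely enough in the other lines, 2 in XN1, 2 in KN1 and 3 in CN4. *H19*, *Meg3* and *Dlk1* were not among them, so these places cannot set XN4 against the other lines. In KN1 and CN4 no place reached 0.15 over all cells. In nondividing CN4 cells 3 of 9 did, and none of these was a listed gene. In XN1 3 did, all of them places of *Plagl1*, which varied most like *Rab3c* (0.26), *Phactr2* (0.22) and *Ctgf* (0.21), none of which is on the lists.

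Members were also compared between dividing cells, with reads of both *Mki67* and *Top2a*, and cells with neither, at 3200 reads per cell. In XN4, *H19* was captured in 18.5% of 502 dividing and 11.5% of 2320 nondividing cells, a ratio of 1.62 (1.19 to 2.18). *Dlk1* was likewise more frequent in dividing cells, 44.4% against 32.6% (1.36, 1.16 to 1.59). *Plagl1* was at 87.5% against 79.3% (1.10, 1.04 to 1.16). *Grb10* had the opposite sign, 13.3% against 21.9% (0.608, 0.443 to 0.821). In KN1 *Grb10* was more frequent in dividing cells, 13.6% against 8.76% (1.55, 1.07 to 2.22), and in CN4 *Peg3* was, 34.0% against 23.2% (1.46, 1.21 to 1.76). *Peg3* leaned the same way in XN4, 71.9% against 66.7% (1.08, 0.987 to 1.17), and in XN1, 34.4% against 28.9% (1.19, 0.991 to 1.43). In KN1 its ratio was 1.01 (0.721 to 1.41).

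*Cdkn1c* encodes a brake on the cell cycle, yet in XN4, XN1 and CN4 its ratio of dividing to nondividing cells never had its whole range below 1. It was 8.96% against 7.24% in XN4 and 10.9% against 12.9% in CN4 (ratio 0.846, 0.615 to 1.16). KN1 had 3 and 9 cells with a read, too few to show a difference (1.00, 0.109 to 6.36). In XN1 it was higher in dividing cells, 3.83% of 601 against 1.24% of 2012 (3.08, 1.33 to 7.06). That ratio was 1.61 at 1600 reads per cell and rests on 23 and 25 cells.

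**Figure D5:**
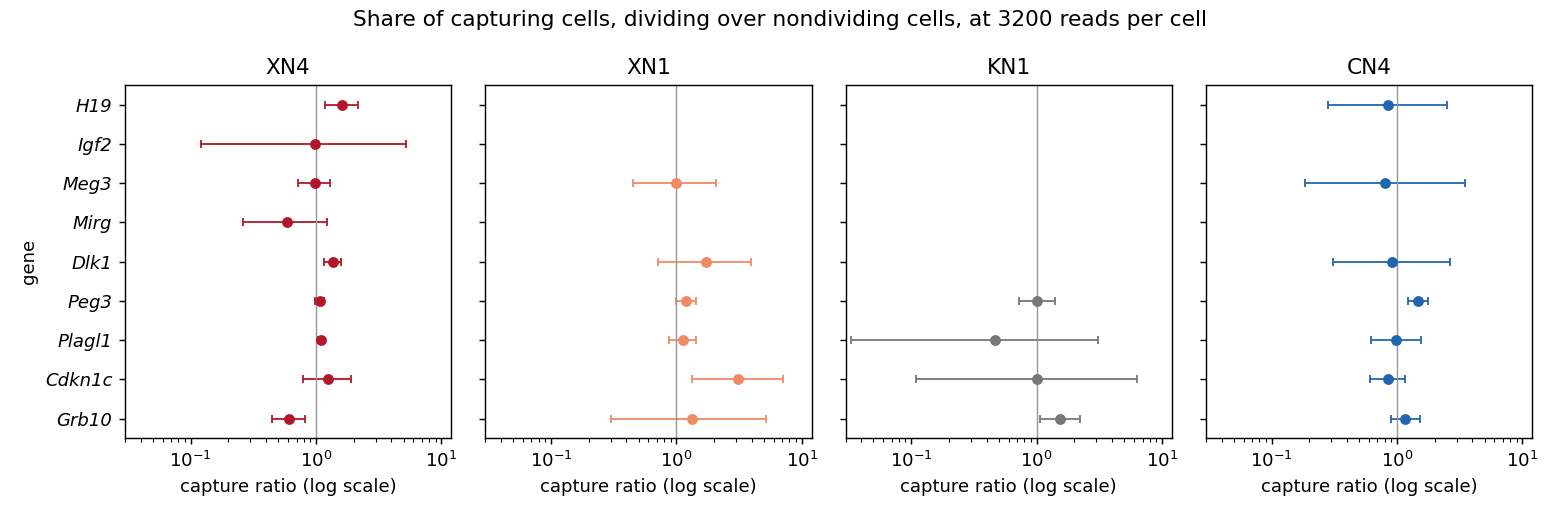
Capture in dividing over nondividing cells (horizontal axis, log scale) at 3200 reads per cell, for genes with at least 10 capturing cells in the 2 groups together and a read in both. Bars run between the quotients of opposite 95% limits of the 2 shares and are wider than a 95% interval of the ratio. The gray line marks 1, and *Grb10* lies below 1 in XN4 (0.608) and above it in KN1 (1.55).

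Other imprinted genes were counted in the same comparisons, where the shares of all genes past 2-fold are those given above for the members. Genes of these lists that are nearly silent in one line likewise had to differ once they entered. The parental labels are those of the lists, and whether these genes are imprinted in these cells was not measured. Of 20 genes listed as maternally expressed, 10 passed the filter between XN4 and XN1. Among them 3 were 2-fold or more higher in XN4 and none lower, beside 15.8% and 12.6% of all genes. These were *Zim1* (2.60 against 0.0125), *Osbpl5* (0.692 against 0.291) and *Dcn* (12.2 against 0.0166), which is also on the mesenchymal list. Of 26 genes listed as paternally expressed, 14 passed, with 5 higher in XN4 and 2 lower. *Magel2* stood at 0.996 in XN4 and at no read in XN1, *Slc38a4*, an amino acid transporter gene, at 0.641 in XN4 and 1 read in XN1, and *Nap1l5* at 0.0108 against 3.01. The medians of the log2 ratio were 0.39 for the maternal and 0.07 for the paternal list, next to 0.09 for all genes. Between XN4 and CN4 the paternal list had 5 higher and 5 lower of 16, beside 15.6% and 13.8% of all genes. *Nnat*, a small membrane protein gene of neural tissue, was at 6.43 in CN4 and 0.00313 in XN4. The maternal list had 3 of 10 higher and none lower in that comparison. The medians were 0.61 for the maternal and -0.13 for the paternal list, next to -0.01 for all genes. Between XN1 and KN1, 2 of 8 maternal genes were higher in XN1 and 1 lower, and of 15 paternal genes 4 were higher and 5 lower. Between CN4 and KN1, 2 of 8 maternal genes were higher in CN4 and 2 lower, and of 15 paternal genes 5 were higher and 3 lower.

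Some of the genes of these lists with the largest ratios were highest in KN1 and others lowest there. *Kcnq1ot1*, the paternal noncoding RNA of the domain that holds *Cdkn1c*, was at 1.14 in KN1, 0.274 in CN4, 0.169 in XN4 and 0.00311 in XN1. *Airn*, the noncoding RNA that runs antisense to *Igf2r*, was at 12.8 in KN1 and 0.830 to 2.65 in the others, whereas the noncoding RNAs *H19*, *Meg3* and *Mirg* were not listed for KN1. *Igf2r*, which encodes the receptor that clears IGF2, was at 0.223 in KN1, 0.917 in CN4, 1.38 in XN4 and 1.75 in XN1. *Gnas*, a gene for a G protein subunit, was also lowest in KN1, at 4.33 against 21.1 to 24.3, whereas *Ppp1r9a*, which encodes an actin-binding protein, was highest there, at 9.60 against 1.26 to 1.96. KN1 also had the highest level of the nuclear RNA *Malat1*, 320.3 against 32.8 to 141.9. The part of this difference in RNA makeup in the KN1 values was not tested.

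Genes of the insulin-like growth factor axis included binding proteins that were far apart between lines. Between XN4 and XN1, 4 of 17 were 2-fold or more higher and 4 lower in XN4, beside 28.4% of all genes in either direction. The binding protein gene *Igfbp2* was at 0.0214 in XN4, 13.4 in XN1, 5.76 in CN4 and 3.16 in KN1. *Igfbp3* was at 0.151 in XN4 and 12.9 in XN1. *Igf2bp2*, which encodes a protein that binds *Igf2* messenger RNA, was at 0.792 in XN4 and 0.0488 in XN1, and it was higher in KN1 (2.60) and CN4 (2.02) than in either. Between XN4 and CN4, 2 of 18 were higher in XN4 and 7 lower, beside 29.5% of all genes in either direction, with *Igfbp7* at 6.42 against 0.0288. Between XN1 and KN1, 7 of 17 were higher and 4 lower in XN1, beside 46%. Between CN4 and KN1, 5 of 17 were higher and 2 lower in CN4, against 41% of all genes in either direction. *Igfbp4* was at 17.4 in CN4 and 1.98 in KN1, and *Igfbp5* at 4.63 and 1.01. *Igf1r*, the receptor gene, varied least among the named genes of this axis, from 1.68 in CN4 to 5.99 in KN1.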

How the data were processed

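The authors made 1 BD Rhapsody whole-transcriptome library per line and deposited read counts per cell for XN4, XN1 and CN4 from the BD pipeline (1.12.1, GENCODE M19, mm10). They also deposited normalized values for all 4 lines, made in Seurat (4.3.0 per the labels), which are the natural log of 1 plus reads per 10000 reads of the cell, for cells drawn and filtered by the authors, after removing ribosomal protein and mitochondrial genes. How molecular tags were used is not given in the sources used here, so counts are called reads. Dividing each cell's values by its smallest gave whole reads for 100% of values (tolerance 0.01), and 0 values differed from the count tables where both exist. The reads-per-cell table of KN1 is not analysed here. Depth in the normalized tables was 19271688 reads in XN1, 22947874 in CN4, 27563145 in KN1 and 41539513 in XN4.

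Levels were pooled reads per 10000. A gene entered a comparison of lines when its mean level was at least 0.1 and both lines listed it, or the count table gave reads for the same cells. The limit was 2-fold for a pair of lines and 4-fold for the range. Thinning drew 3200 reads per cell and left out 776 cells of XN1, 579 of KN1, 543 of XN4 and 290 of CN4. No doublet caller was run, and the 5% of cells with the most reads were left out as an alternative. With 1 library per line no test between lines was made. The fold calls were tried on simulated pooled Poisson counts, where 200 genes changed 4-fold were called in 100% of cases between XN4 and XN1 (9848 genes). At levels of at least 0.1 such a change was near certain to pass the 2-fold limit. The uneven spread of reads over cells was not simulated, so the outcome does not bear on it. The co-capture ratios were also tried on simulated cells, and that outcome is not reported here. Python (3.11.15), NumPy (2.4.6), SciPy (1.17.1) and Matplotlib (3.10.9) were used. All 10 members were named, up to 3 genes of each other list and pair with the largest log2 ratio, and the 3 genes most like each member. The members and lists were chosen with earlier results of these data known.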

Additional observations from a re-analysis of the deposited data

How the results depend on the processing

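No member past 2-fold turned its direction under any alternative tried, whereas ratios near 1 (*Peg3* between XN1 and KN1, and *Cdkn1c* in dividing CN4 cells at 0.766 to 1.06) took either side. Between XN1 and KN1, 4 of 5 members were 2-fold apart with no filter on low values, against 2 of 3. Between CN4 and KN1, 0 of 2 remained past 2-fold with a filter at 0.5, against 2 of 4, since *Cdkn1c* and *Plagl1* fell below it. The shares of all genes past 2-fold were not counted at these changed filters, so the counts are no result about the members. The count over the 4-fold range was 3 with only XN1, KN1 and CN4, an alternative chosen after seeing the data. Members captured in at least 10% of KN1 cells were 2 (*Peg3* and *Grb10*), and 1 with at least 2 reads, 1 without the 5% of cells with the most reads and 1 at 1600 reads per cell. In CN4 they were 4, and 2 with at least 2 reads and 1 at 1600 reads. At 3200 reads per cell the limit was reached in KN1 by 2 members and by 2288 of 14672 listed genes. In CN4 it was reached by 3 members and by 5657 of 14704. The share of all genes with all reads was not counted, so these counts are no result about the members. Of 545 recomputed values, 40 moved beyond their counting interval or, for counts, by over 1.5 times. The planned ratio of *Meg3* and *Rian* could not be run, because *Rian* has no value here, and other pairs took its place after the data were seen. No paired analysis was possible because each line is 1 library, and leaving out a replicate is not possible for the same reason. Depth limits *Igf2* in XN4, XN1 and CN4, *H19*, *Meg3*, *Mirg* and *Dlk1* outside XN4, *Grb10* in XN1 and *Cdkn1c* in XN1 and KN1, where a level rests on 211 reads or fewer.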
